A study of Rattus norvegicus with 12 samples.

Results

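GABA is the main inhibitory transmitter of the striatum, and 7 genes that make it, load it into vesicles, take it up, break it down and sense it were followed here across short abstinence from methamphetamine (MA). They were found in the raw count table by their symbols, Gad1, Gad2, Slc32a1, Slc6a11, Abat, Gabbr1 and Gabbr2. Each symbol matched a row, so the set was 7 of the 17337 genes listed, with a count in each of the 12 libraries. None of the 7 was differentially expressed (adjusted p below 0.05 and at least 1.5-fold) between any pair of groups. Few genes were at all: 2.45% of those tested in MA24 vs. MA12, 0.251% in non-addicted vs. MA12 and 0.456% in non-addicted vs. MA24.

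Each library was made from the striatum of 1 male wild-type Sprague–Dawley rat, 8 weeks old when training began. By the labels, every group followed 16 days of MA self-administration, for which the study's paper gives daily 2-h sessions. On these labels the controls carried MA exposure too, and no rats labelled as saline-trained were analysed here. The paper names saline, MA, MA12 and MA24 groups but no non-addicted group, so the drug history of the non-addicted rats rests on the labels alone. The MA12 group (rats 21, 31, 4N and 7N) was killed after 12 h of abstinence and the MA24 group (9N, 14N, 15N and 16N) after 24 h. The labels call the remaining 4 rats (9, 11, 12 and 13) non-addicted, and the time between their last session and tissue collection is not given in the sources used here. Some rat numbers end in N, a letter whose meaning the sources do not give. It is carried by 4 of 4 MA24 rats, 2 of 4 MA12 rats and no non-addicted rat, so in the comparison of non-addicted with MA24 rats the group and the kind of number cannot be told apart. MA12 and MA24 rats died 12 h apart, and time of day and length of abstinence cannot be told apart either.

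Most striatal neurons are projection neurons that use GABA themselves. GABA is formed from glutamate by 2 decarboxylases, GAD67 (Gad1), which is spread through the cell, and GAD65 (Gad2), which sits mostly at synaptic vesicles in nerve endings. The vesicular transporter VGAT (Slc32a1) fills vesicles with GABA, the transporter GAT-3 (Slc6a11) returns released GABA mainly to astrocytes, and GABA transaminase (Abat) breaks it down in mitochondria. The metabotropic GABA-B receptor is an obligate pair, in which GABBR1 binds GABA and GABBR2 brings the pair to the surface and couples it to G proteins of the Gi/o class.

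Both of these systems come as pairs of genes, the decarboxylases and the receptor subunits, and the balance within each pair was compared across the groups. Their promoters are shown because they are the sequences next to the transcription starts of the 4 genes concerned. The windows come from RefSeq on the GRCr8 build, whereas the reads were mapped to rn6, and 6 of the 7 genes had a window of 250 bases before the start and 50 after it, all except Abat. The 250 bases before each start are printed 5′ to 3′ on the strand of the gene, for Gad1 at chr3:75777202-75777451 (+), Gad2 at chr17:89671468-89671717 (+), Gabbr1 at chr20:1499237-1499486 (-) and Gabbr2 at chr5:66083696-66083945 (-). Capitals mark the letters GGGCGG, the core of an SP1 site, on either strand, and TATAAA, those of a TATA box. They are matches of letters at any distance from the start, and their use as sites was not tested.
Gad1: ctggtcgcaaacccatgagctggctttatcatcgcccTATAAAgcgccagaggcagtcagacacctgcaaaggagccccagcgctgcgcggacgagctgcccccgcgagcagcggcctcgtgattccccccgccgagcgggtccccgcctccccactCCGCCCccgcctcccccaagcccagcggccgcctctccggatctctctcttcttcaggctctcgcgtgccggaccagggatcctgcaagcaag
Gad2: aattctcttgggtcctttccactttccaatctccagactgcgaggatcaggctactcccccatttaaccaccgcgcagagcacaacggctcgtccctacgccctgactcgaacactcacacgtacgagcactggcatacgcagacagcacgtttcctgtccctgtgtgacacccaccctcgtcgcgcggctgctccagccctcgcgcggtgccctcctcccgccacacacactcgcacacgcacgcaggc
Gabbr1: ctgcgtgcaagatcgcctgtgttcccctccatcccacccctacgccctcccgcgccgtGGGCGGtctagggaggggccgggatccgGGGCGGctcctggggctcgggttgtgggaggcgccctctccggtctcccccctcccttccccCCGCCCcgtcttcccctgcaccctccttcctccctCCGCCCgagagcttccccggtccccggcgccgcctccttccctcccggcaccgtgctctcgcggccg
Gabbr2: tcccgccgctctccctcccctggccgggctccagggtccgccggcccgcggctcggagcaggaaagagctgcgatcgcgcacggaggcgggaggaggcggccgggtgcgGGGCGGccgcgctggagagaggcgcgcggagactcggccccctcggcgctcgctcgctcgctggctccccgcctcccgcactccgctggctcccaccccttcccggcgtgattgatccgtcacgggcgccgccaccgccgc

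The 2 decarboxylase promoters did not share these letters. The Gad1 window held GGGCGG on the minus strand, 93 bases before the start, and TATAAA 213 bases before it, while the Gad2 window held neither. The Gabbr1 window held 4 copies of GGGCGG and the Gabbr2 window 1 copy. GGGCGG was present in 5 of the 6 windows, against 33.1% of 33469 rat promoter windows of the same length, and TATAAA in 1 of 6, against 14.2%. The 6 windows held 63.7% (Gad2) to 78.7% (Gabbr2) G and C. The shares are over all windows and were not matched for this content. Letters bound by factors that respond to neuronal activity were searched on both strands in the whole windows. TGACGTCA (the cyclic AMP response element) was in none of the 6 and in 1.83% of all windows, TGANTCA (AP-1) in none and 7.33%, and GCGTGGGCG (EGR) in none and 0.544%. The motifs share no overlapping letters in the printed windows, and the absence of these letters says nothing of the factors elsewhere.

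Between 17908962 and 23850284 reads were counted per library, and the 7 genes were well covered, with the lowest count of any rat at 859 (Slc6a11) and the highest at 43005 (Gabbr1). Levels are given as CPM, the counts of a gene scaled to a common library size, after TMM adjustment of the library sizes, and values are mean ± SD over the 4 rats of a group. Long transcripts collect more reads and no lengths were used, so the level of each of the 7 genes is compared between rats and not with that of another gene. The tissue carried the defining genes of the striatum: 10 markers of projection neurons (among them Ppp1r1b, Drd1 and Adora2a) summed to 14147 to 18644 CPM per library. As a check of the dissection, 5 markers of cortical glutamate neurons summed to 2.86 to 4.26 CPM in MA12, 3.50 to 10.2 in MA24 and 3.36 to 6.05 in non-addicted rats. Their highest sums were those of MA24 rats 15N (7.61) and 16N (10.2). The 3 markers of septum or pallidum neurons were uneven too, at 24.9 to 46.4 CPM in MA12, 22.8 to 37.0 in MA24 and 29.0 to 57.2 in non-addicted rats. In bulk tissue, fewer cells of a type and less RNA per cell cannot be told apart. The separate rats are the replicates, so p-values set a difference between groups against the spread between animals.

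The steadiest of the 7 genes were Gabbr1, Slc32a1 and Gad1, whose highest library stood 1.25-fold, 1.26-fold and 1.31-fold above the lowest across the 12 rats. Gabbr2 and Gad2 spanned 1.52-fold and 1.62-fold, Abat spanned 1.94-fold, and Slc6a11 ran from 43.3 to 86.5 CPM, the widest of the 7 in relative terms. The genes of the uptake and breakdown steps therefore varied most among rats, and the receptor subunit Gabbr1, the vesicular transporter and GAD67 least.

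**Figure D1:**
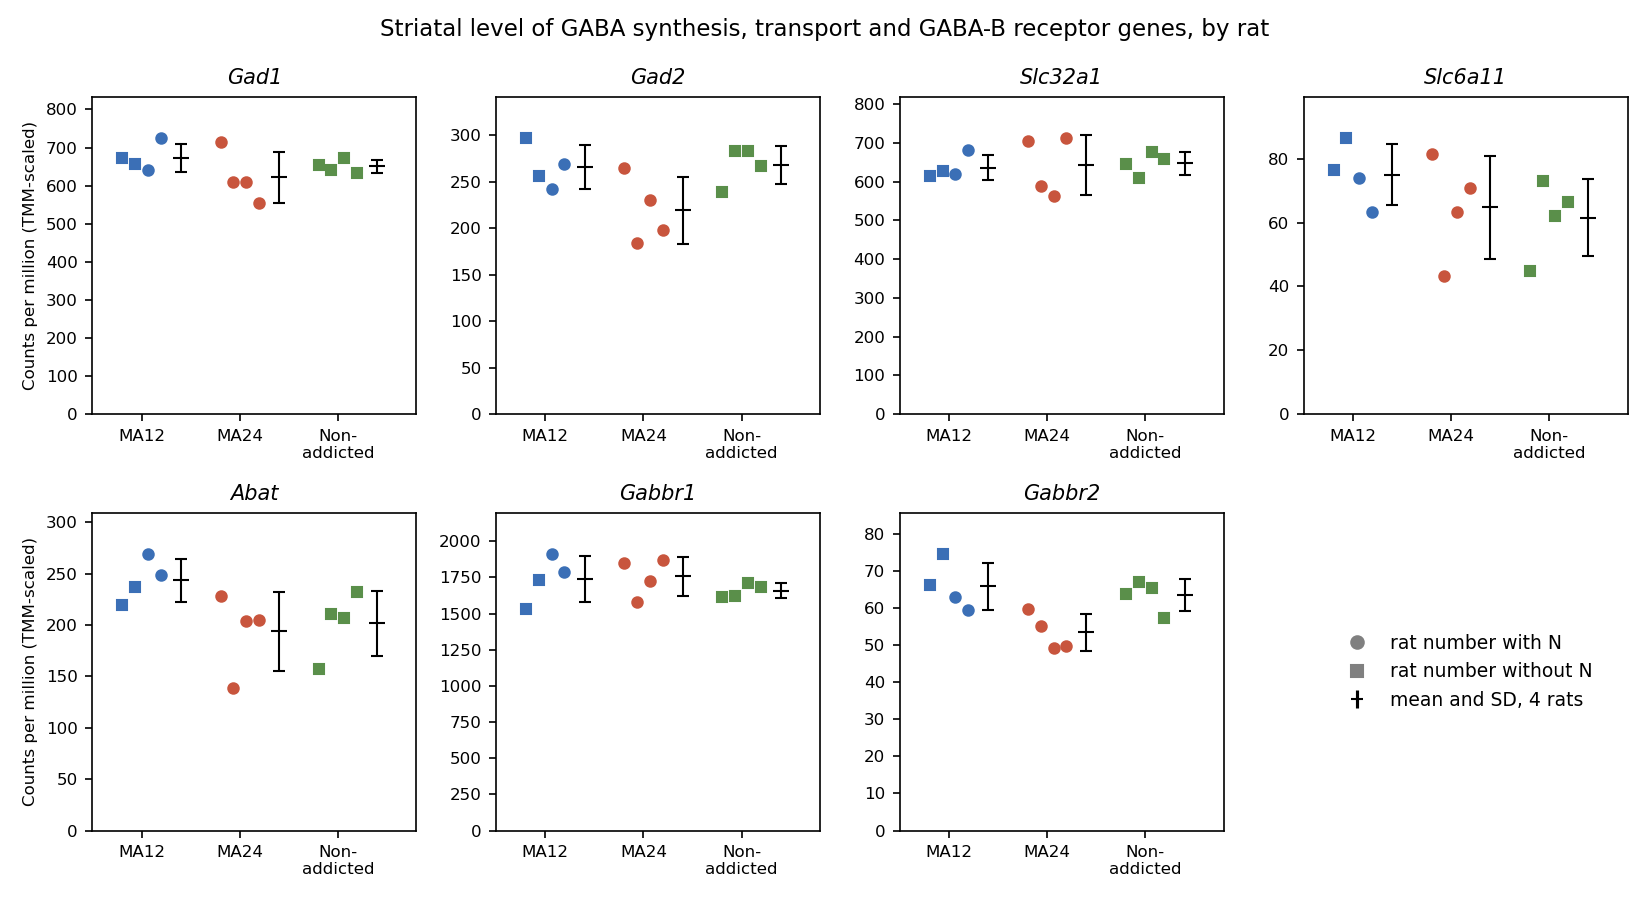
TMM-scaled CPM of each of the 7 genes (1 panel per gene, linear axes that differ between panels) in every rat of the MA12, MA24 and non-addicted groups. Circles are rats whose number ends in N, squares are the others, and black marks are the mean and SD of 4 rats. The 3 groups overlap in every panel, and MA24 rat 14N and non-addicted rat 9 are the lowest for Slc6a11 and Abat.

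Of the 2 decarboxylases, Gad1 was expressed at 673, 656, 641 and 725 CPM in MA12 rats 21, 31, 4N and 7N (674 ± 36.8), at 714, 609, 610 and 555 in MA24 rats 9N, 14N, 15N and 16N (622 ± 66.4), and at 655, 640, 673 and 633 in non-addicted rats 9, 11, 12 and 13 (650 ± 17.6). Rats of each group are named in this order below. The MA24 group held both a high value, in 9N, and the lowest of all, in 16N. The log2 fold change (log2FC) of MA24 vs. MA12 was -0.11 (SE 0.10, 95% interval -0.32 to 0.09, adjusted p = 0.504), by the quasi-likelihood test of edgeR, with p-values adjusted by the Benjamini-Hochberg method over all genes tested, as are all adjusted p-values unless another test is named. Non-addicted rats differed from MA12 rats by -0.06 (interval -0.21 to 0.09) and from MA24 rats by 0.06 (interval -0.14 to 0.26) on the log2 scale, both intervals including 0.

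Gad2 was expressed at 297, 256, 242 and 269 CPM in MA12 rats (266 ± 23.4), at 265, 184, 230 and 198 in MA24 rats (219 ± 36.3), and at 239, 283, 283 and 267 in non-addicted rats (268 ± 20.9). The 3 lowest levels were those of MA24 rats 14N, 16N and 15N, and MA24 rat 9N lay within the range of the other groups. The log2FC of MA24 vs. MA12 was -0.28 (SE 0.11, interval -0.52 to -0.04, unadjusted p = 0.0250, adjusted p = 0.149, edgeR). Non-addicted vs. MA24 gave 0.28 (SE 0.11, interval 0.05 to 0.52, adjusted p = 0.215, edgeR), a comparison that shares the MA24 rats with the first. Neither passed the adjusted threshold of 0.05, and non-addicted and MA12 rats differed by 0.01 (interval -0.20 to 0.21). Without MA24 rat 9N, the MA24 vs. MA12 difference was -0.38 with an edgeR adjusted p of 0.0441, still under the 1.5-fold required of a differentially expressed gene (DEG).

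Slc32a1 encodes the transporter that fills vesicles with GABA. Its level was 615, 627, 619 and 682 CPM in MA12 rats (636 ± 31.5), 705, 587, 564 and 712 in MA24 rats (642 ± 77.4), and 645, 608, 677 and 658 in non-addicted rats (647 ± 29.3). MA24 rats held the 2 highest levels and the 2 lowest, and the group means differed by less than their SDs. The log2FC was 0.01 for MA24 vs. MA12 (SE 0.10, interval -0.20 to 0.23, adjusted p = 0.950, edgeR), 0.02 for non-addicted vs. MA12 (interval -0.13 to 0.17) and 0.01 for non-addicted vs. MA24 (interval -0.20 to 0.22).

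Slc6a11, the astrocyte GABA transporter, was expressed at 76.4, 86.5, 73.8 and 63.2 CPM in MA12 rats (75.0 ± 9.56), at 81.4, 43.3, 63.4 and 70.8 in MA24 rats (64.7 ± 16.1), and at 44.8, 72.9, 62.2 and 66.3 in non-addicted rats (61.5 ± 12.0). A single rat in each of the last 2 groups, 14N and 9, lay far under its companions, and the groups overlapped. The log2FC was -0.21 for MA24 vs. MA12 (SE 0.15, interval -0.52 to 0.09, adjusted p = 0.386, edgeR) and -0.29 for non-addicted vs. MA12 (SE 0.13, interval -0.56 to -0.02, unadjusted p = 0.0359, adjusted p = 0.360, edgeR). The 8 astrocyte markers summed to 3167 to 4330 CPM in MA12, 3675 to 4110 in MA24 and 3310 to 4119 in non-addicted rats, ranges that overlap. Single markers went both ways, with 4 higher and 4 lower in MA24 vs. MA12, and 3 higher and 5 lower in non-addicted vs. MA12. The part of astrocyte content in the Slc6a11 values was not tested.

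Abat, the enzyme that removes GABA, was expressed at 219, 237, 269 and 249 CPM in MA12 rats (244 ± 20.9), at 228, 138, 204 and 205 in MA24 rats (194 ± 38.6), and at 157, 211, 207 and 232 in non-addicted rats (202 ± 31.9). Rats 14N and 9 were again the lowest of their groups, while 3 of 4 MA24 rats and 3 of 4 non-addicted rats lay under every MA12 rat. The log2FC of MA24 vs. MA12 was the largest of the 7 genes, at -0.33 (SE 0.13, interval -0.59 to -0.07, unadjusted p = 0.0171, adjusted p = 0.123, edgeR). Non-addicted vs. MA12 gave -0.28 (SE 0.12, interval -0.52 to -0.03, unadjusted p = 0.0274, adjusted p = 0.330, edgeR). These comparisons share the MA12 rats, and non-addicted vs. MA24 gave 0.05 (interval -0.24 to 0.34). Across the 12 libraries Abat and Slc6a11 had a Pearson r of 0.835 on the log2 CPM scale, the highest of the 21 pairs of the 7 genes, given as a description of libraries that differ in depth and group.

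Gabbr1, the GABA-binding subunit of the GABA-B receptor, was expressed at 1532, 1734, 1910 and 1788 CPM in MA12 rats (1741 ± 158), at 1850, 1579, 1728 and 1870 in MA24 rats (1757 ± 134), and at 1611, 1619, 1714 and 1687 in non-addicted rats (1658 ± 50.5). MA12 rats held both the lowest and the highest level. The log2FC was 0.01 for MA24 vs. MA12 (SE 0.10, interval -0.20 to 0.22, adjusted p = 0.952, edgeR) and -0.08 for non-addicted rats against either MA group (intervals -0.29 to 0.13 against MA12 and -0.24 to 0.07 against MA24).

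Gabbr2, the subunit that couples to G proteins, was expressed at 66.4, 74.6, 63.0 and 59.6 CPM in MA12 rats (65.9 ± 6.44), at 59.9, 55.1, 49.2 and 49.7 in MA24 rats (53.5 ± 5.04), and at 63.9, 67.2, 65.5 and 57.4 in non-addicted rats (63.5 ± 4.26). The highest MA24 rat, 9N, stood just over the lowest MA12 rat, 7N, so the groups overlapped by this single pair of values. Gabbr2 had the lowest adjusted p of the 7 genes, with a log2FC of -0.30 for MA24 vs. MA12 (SE 0.10, interval -0.52 to -0.08, unadjusted p = 0.00974, adjusted p = 0.0957, edgeR). Non-addicted vs. MA24 gave 0.24 (SE 0.10, interval 0.03 to 0.46, adjusted p = 0.235, edgeR) and non-addicted vs. MA12 -0.06 (interval -0.26 to 0.15). In the annotation of GRCr8 the gene overlaps long noncoding RNA genes, and the library kit does not mark strand, so reads of such partners cannot be told apart from Gabbr2.

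DEGs were defined by an adjusted p below 0.05 with a fold change (FC) of at least 1.5, after genes with a mean count of 4 or less and then the 15% with the lowest variance were removed. In MA24 vs. MA12, all 7 genes passed these filters and 0 were DEGs in edgeR, beside 2.45% of the 10754 genes tested (264 DEGs). At an unadjusted p below 0.05 there were 3 of the 7 (Gad2, Abat and Gabbr2, all lower in MA24), beside 23.6% of all genes in either direction and 13.1% lower. No gene of the 7 had groups that did not overlap, beside 15.6% of all genes tested. The median log2FC of the 7 was -0.21, with 5 of 7 lower in MA24, and that of all genes -0.02, with 51.7% lower. The 4 genes with the lowest log2FC (Abat, Gabbr2, Gad2 and Slc6a11) were also the 4 with the longest genomic spans of the 7 in RefSeq's GRCr8 annotation, a build other than that of the counts, and the part of gene length in these values was not tested.

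In non-addicted vs. MA12, 0 of the 7 were DEGs in edgeR, beside 0.251% of 10758 genes, and 2 (Slc6a11 and Abat, both lower) had an unadjusted p below 0.05, beside 12.3% in either direction and 7.03% lower. Of the 7, 5 were lower at any p, beside 52.3% of all genes. Gad1 and Slc32a1 did not pass the variance filter there and their values come from the fit without it. In non-addicted vs. MA24, 0 of the 7 were DEGs, beside 0.456% of 10744 genes, and 2 (Gad2 and Gabbr2, both higher) had an unadjusted p below 0.05, beside 17.5% in either direction and 9.33% higher. Of the 7, 2 were lower at any p, beside 49.7% of all genes. Gabbr1 did not pass the variance filter in that pair. Groups did not overlap for 0 of the 7 in both comparisons, beside 7.01% and 9.96% of all genes. DESeq2 and edgeR's likelihood ratio test were run on the genes that passed the filters, which held 7, 5 and 6 of these genes in the 3 comparisons, and found 0 DEGs among them. Over all genes, the 2 tests called 316 and 380 of 10754 in MA24 vs. MA12. They called 75 and 87 of 10758 in non-addicted vs. MA12, and 126 and 163 of 10744 in non-addicted vs. MA24.

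The 95% intervals bound the differences these libraries allow. Of 21 intervals, 20 lay inside a 1.5-fold change in both directions, so that for 20 of them a change of the size asked of a DEG lay outside the interval. The exception was Abat in MA24 vs. MA12, whose interval reached a 1.51-fold lower level. A smaller change was compatible with many of the intervals, 7 of which did not include 0.

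**Figure D2:**
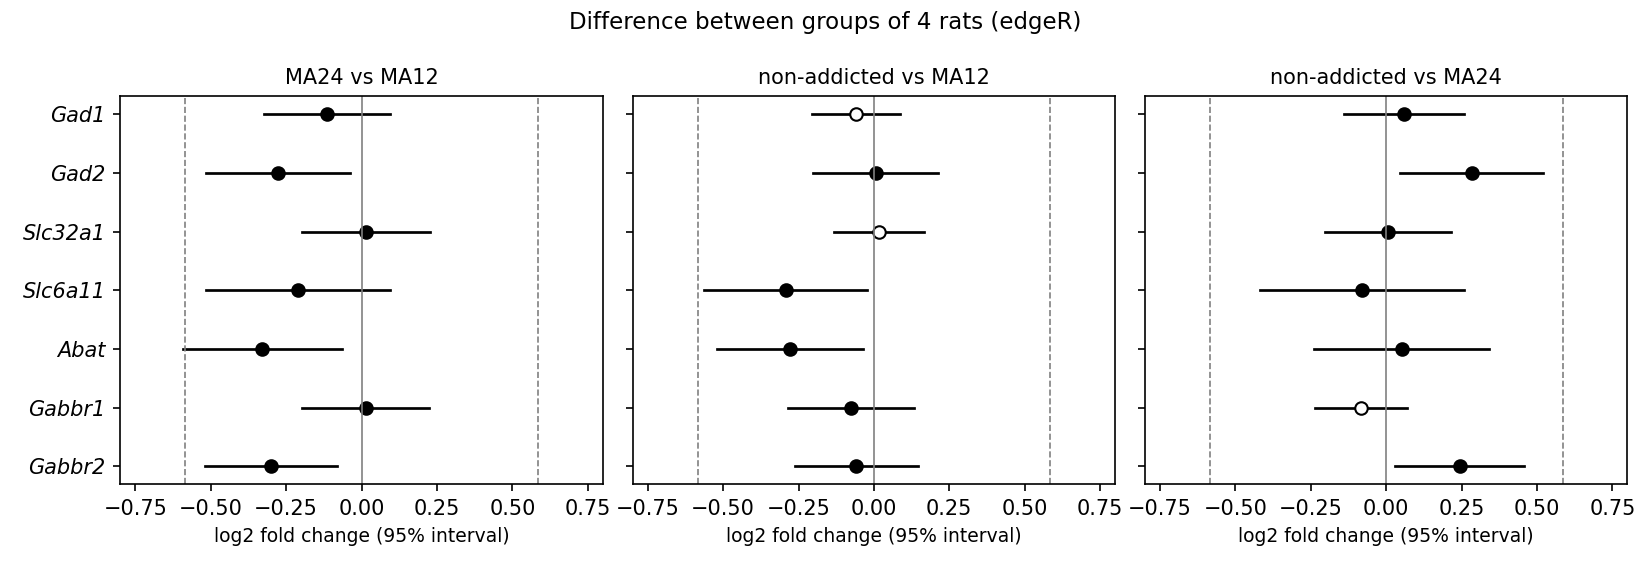
Log2 fold change of each of the 7 genes in the 3 comparisons, with 95% intervals from edgeR's quasi-likelihood fit. Dashed lines mark a 1.5-fold change, and open circles are genes below the variance filter, taken from the fit without it. The intervals of Gad2, Abat and Gabbr2 lie under 0 in MA24 vs. MA12, and the interval of Abat alone crosses a dashed line.

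The balance within each pair of genes was read as a ratio of counts inside a library, which does not depend on scaling. The ratio is not one of molecules, since transcript lengths differ, and it is compared between groups only. Gad1 to Gad2 was 2.27, 2.57, 2.65 and 2.70 in MA12 rats (2.54 ± 0.192), 2.69, 3.31, 2.65 and 2.81 in MA24 rats (2.87 ± 0.304), and 2.75, 2.26, 2.38 and 2.37 in non-addicted rats (2.44 ± 0.212). MA24 rats lay at the upper end, with 14N highest, and the groups overlapped. Ratios were tested by two-sided exact permutation, enumerating all 70 ways to divide 8 rats into 4 and 4. MA24 exceeded MA12 by 0.17 on the log2 scale (exact p = 0.0857) and non-addicted rats lay under MA24 by a log2 difference of -0.23 (exact p = 0.0857). With Benjamini-Hochberg adjustment over 6 ratio tests both exact p-values became 0.171, and the smallest p this design allows is 0.0286.

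Gabbr1 to Gabbr2 was 23.1, 23.2, 30.3 and 30.0 in MA12 rats (26.7 ± 4.05), 30.9, 28.7, 35.1 and 37.6 in MA24 rats (33.1 ± 4.05), and 25.2, 24.1, 26.1 and 29.4 in non-addicted rats (26.2 ± 2.26). The MA24 mean was the highest, with a log2 difference from MA12 of 0.32 (exact permutation p = 0.114, adjusted 0.171) and a log2 difference of non-addicted from MA24 rats of -0.33 (exact permutation p = 0.0571, adjusted 0.171). Within MA12 the ratio parted by kind of rat number, at 23.1 and 23.2 in rats 21 and 31 against 30.3 and 30.0 in rats 4N and 7N. Among rats numbered with N alone, MA24 vs. MA12 differed by 0.12 in this ratio and by 0.10 in Gad1 to Gad2, against 0.32 and 0.17 with all rats. Among rats numbered without N, non-addicted vs. MA12 differed by 0.17 in Gabbr1 to Gabbr2 and by 0.01 in Gad1 to Gad2, where all rats gave -0.02 and -0.06. Exact tests on these smaller sets were not run.

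**Figure D3:**
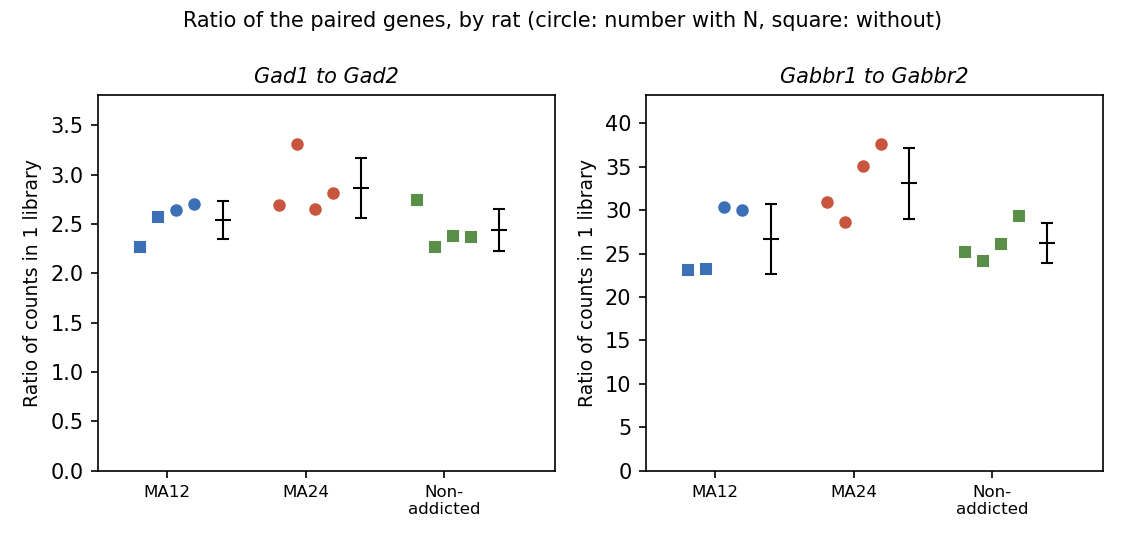
Ratio of counts within a library, Gad1 to Gad2 and Gabbr1 to Gabbr2 (1 panel each, linear axes), in every rat of the 3 groups. Circles are rats whose number ends in N, squares the others, and black marks the mean and SD of 4 rats. MA24 has the highest mean in both panels, and in the receptor panel the MA12 circles sit at 30.3 and 30.0 and the MA12 squares at 23.1 and 23.2.

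The same split was applied to each gene. With only N-numbered rats (2 MA12 and 4 MA24), the MA24 vs. MA12 log2FC was -0.41 for Abat, -0.21 for Gad2, -0.19 for Gabbr2, -0.12 for Gad1, -0.07 for Slc6a11, -0.06 for Gabbr1 and -0.01 for Slc32a1, none a DEG. The differences of Gabbr2 and Gad2 thus shrank and that of Abat grew, while Gabbr1 and Slc32a1 changed sign around 0. With non-addicted rats and the 2 MA12 rats numbered without N, Slc6a11 gave -0.39, Abat -0.17, Gabbr2 -0.14 and Gad2 -0.03.

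The 7 genes were read beside 44 further genes of the GABA pathway, of which 42 were in the table, in 6 lists. In MA24 vs. MA12, 2 of the 42 were DEGs and 4 had an edgeR adjusted p below 0.05, all lower in MA24, beside 1.72% and 3.32% of all genes in that direction, and the median log2FC of the 42 was -0.09. In non-addicted vs. MA12, 0 of 41 were DEGs or had an edgeR adjusted p below 0.05, beside 0.27% of all genes with an adjusted p below 0.05 at any fold, and 4 of 41 had an unadjusted p below 0.05, beside 12.3% of all genes. In non-addicted vs. MA24, 1 of 41 was a DEG, higher in non-addicted rats, beside 0.326% of all genes in that direction. Genes below the variance filter entered these counts from the fit without it.

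Glutamate, from which GABA is made, is supplied by glutamine transport and by uptake. Slc38a1, a glutamine transporter of neurons, was expressed at 97.0, 103, 98.4 and 91.8 CPM in MA12 rats, 78.7, 57.5, 72.1 and 67.7 in MA24 rats, and 74.5, 73.0, 95.8 and 86.1 in non-addicted rats. Every MA24 rat lay under every MA12 rat, and groups did not overlap in either direction for 15.6% of all genes. The log2FC of Slc38a1 was -0.50 (SE 0.10, adjusted p = 0.0131, edgeR), lower by less than 1.5-fold, with an edgeR adjusted p of 0.0976 among N-numbered rats and 0.0992 with the kind of number as a covariate. Slc1a2, the main astrocyte glutamate transporter, was at 236, 323, 304 and 222 CPM in MA12 rats, 231, 98.1, 147 and 191 in MA24 rats, and 93.5, 215, 198 and 247 in non-addicted rats. It fell in MA24 vs. MA12 with a log2FC of -0.70 (SE 0.18, adjusted p = 0.0328, edgeR), although the groups overlapped, and rats 14N and 9 were lowest here as they were for Slc6a11 and Abat. Its adjusted p was 0.0862 in DESeq2 and ranged from 0.00412 to 0.154 over the alternatives, and in edgeR it was 0.0676 without the variance filter, 0.0838 with all 3 groups in 1 fit, 0.0687 among N-numbered rats, 0.0735 without rat 31, 0.0547 without 4N, 0.0584 without 14N and 0.0839 without 15N. Of the other 8 supply genes none passed the threshold in this comparison. Slc38a2 had a log2FC of -0.34 (adjusted p = 0.0693, edgeR), also without overlap. Gls2, a glutaminase that releases glutamate from glutamine, had a log2FC of 0.18 (adjusted p = 0.354, edgeR). In non-addicted vs. MA24 Gls2 was at -0.46 (unadjusted p = 0.000590, adjusted p = 0.0675, edgeR), and the groups did not overlap, as for 9.96% of all genes.

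Downstream of the GABA-B receptor, Gi/o proteins open inwardly rectifying potassium channels. Kcnj6, a channel subunit (GIRK2), was at 12.5, 7.48, 2.44 and 3.22 CPM in MA12 rats, 2.62, 2.41, 2.11 and 1.64 in MA24 rats, and 5.63, 16.9, 6.97 and 2.71 in non-addicted rats. It passed the threshold in MA24 vs. MA12 (log2FC -1.54, SE 0.39, adjusted p = 0.0273, edgeR) and in non-addicted vs. MA24 (log2FC 1.86, SE 0.39, adjusted p = 0.0364, edgeR), 2 comparisons that share the MA24 rats. Within MA12 the 2 rats numbered with N, at 2.44 and 3.22, lay near the MA24 range, and among N-numbered rats the log2FC was -0.35 (adjusted p = 0.696, edgeR). Leaving out MA12 rat 21 gave -0.99 (adjusted p = 0.151, edgeR), and the edgeR adjusted p was 0.0505 without rat 31, 0.0627 without 15N and 0.0770 without 16N. It was also 0.0599 without the variance filter, 0.0649 with all 3 groups in 1 fit and 0.604 with the kind of number as a covariate. In non-addicted vs. MA24, leaving out non-addicted rat 11 gave 1.21 (adjusted p = 0.125, edgeR), and the adjusted p was 0.0885 without rat 12, 0.0922 without 15N, 0.106 without 16N, 0.0916 without the variance filter, 0.0628 without filters and 0.110 with all 3 groups in 1 fit. Over all alternatives the adjusted p of Kcnj6 ran from 0.00324 to 0.696 in MA24 vs. MA12 and from 0.000536 to 0.125 in non-addicted vs. MA24. Gnai1, an inhibitory G protein subunit, was lower in MA24 vs. MA12 with a log2FC of -0.38 (SE 0.11, adjusted p = 0.0451, edgeR, 0.0158 to 0.378 over the alternatives), below 1.5-fold. It was at 107, 102, 95.6 and 87.5 CPM in MA12, 87.7, 66.7, 77.6 and 69.6 in MA24, and 107, 109, 91.1 and 88.1 in non-addicted rats. Its edgeR adjusted p rose to between 0.0608 and 0.146 without any single one of rats 21, 31, 4N, 14N, 15N or 16N. Among N-numbered rats its log2FC was -0.27 (adjusted p = 0.378, edgeR), and with the kind of number as a covariate -0.28 (adjusted p = 0.288, edgeR). Non-addicted vs. MA24 gave 0.39 for Gnai1 (unadjusted p = 0.00264, adjusted p = 0.112, edgeR), without overlap, as for 9.96% of all genes. Kctd8, an auxiliary subunit of the receptor, had a log2FC of 0.01 (adjusted p = 0.974, edgeR), and none of the other 10 measured partners passed.

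The neighbouring steps did not pass the threshold in any comparison. Of 3 further uptake genes 0 passed, with Slc6a12 not tested against the non-addicted rats because its mean count was 4 or less. The GABA transporter Slc6a13 had a log2FC of -0.19 in MA24 vs. MA12 (adjusted p = 0.601, edgeR). In non-addicted vs. MA12 it was -0.73 (unadjusted p = 0.00732, adjusted p = 0.201, edgeR), and the groups did not overlap, as for 7.01% of all genes. In non-addicted vs. MA24 it was -0.53 (adjusted p = 0.319, edgeR). Of 4 breakdown genes 0 passed, and Aldh5a1, which acts on the product of GABA transaminase, had a log2FC of -0.09 in MA24 vs. MA12 (adjusted p = 0.606, edgeR). Of 5 genes for vesicle loading and enzyme partners 0 passed, with the proton pump subunit Atp6v0c at 0.21 in MA24 vs. MA12 (adjusted p = 0.189, edgeR). Of 7 measured transcription factors of GABA neurons 0 passed. Dlx1 was at -0.46 in MA24 vs. MA12 (adjusted p = 0.252, edgeR), a value that turned to 0.28 among N-numbered rats. Dlx2 was at 0.81 in non-addicted vs. MA24 (unadjusted p = 0.00207, adjusted p = 0.102, edgeR), and the groups did not overlap, as for 9.96% of all genes. At an unadjusted p below 0.05, edgeR's MA24 vs. MA12 fit had 0 uptake genes, 0 breakdown genes, 3 of 5 loading and partner genes (Atp6v0c, higher at 0.21, with Dnajc5 and Zdhhc17, lower at -0.35 and -0.34) and 0 transcription factors, beside 23.6% of all genes.

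**Figure D4:**
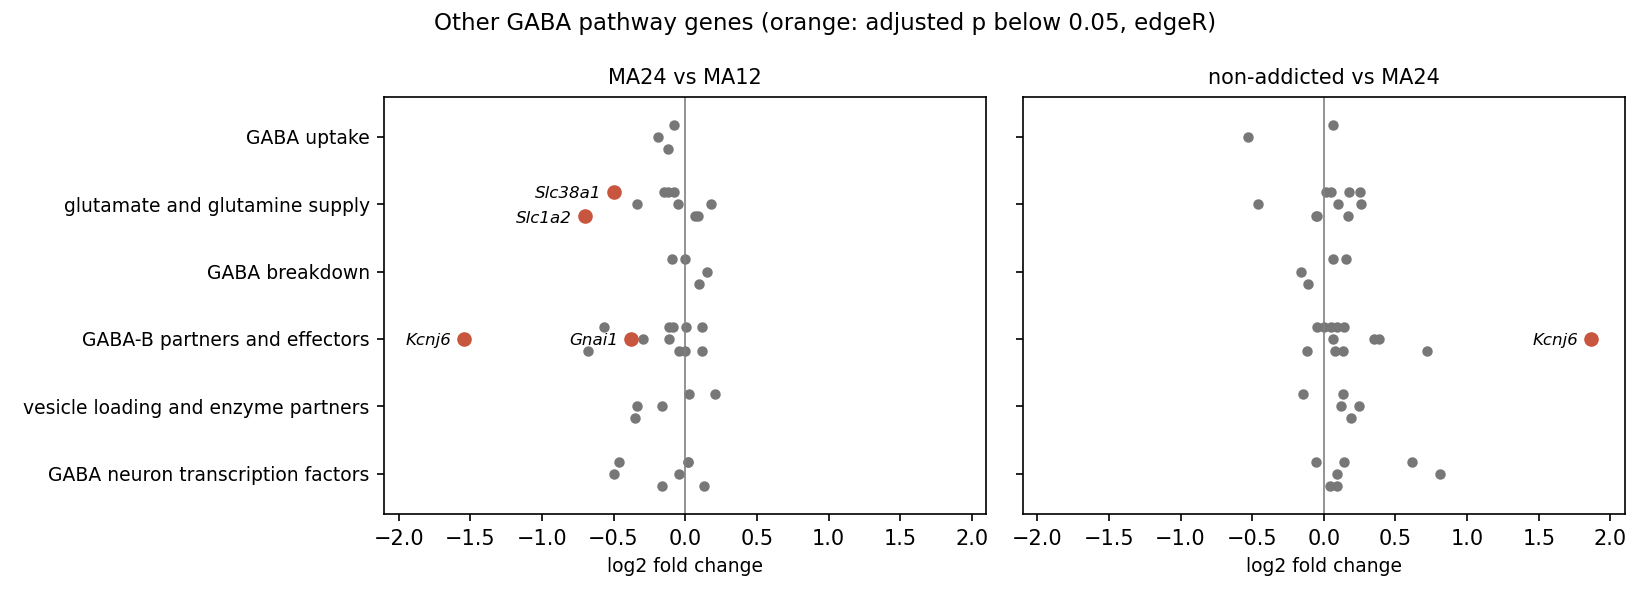
Log2 fold change of the other GABA pathway genes, 1 point per gene and 1 row per list, in MA24 vs. MA12 (left) and non-addicted vs. MA24 (right), with both axes linear in log2. Orange points with names have an edgeR adjusted p below 0.05, which are Slc38a1, Slc1a2, Kcnj6 and Gnai1 on the left, all under 0, and Kcnj6 at 1.86 on the right.

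The summed levels of every marker list overlapped between MA12 and MA24 rats, while some stood apart in non-addicted rats. The 8 markers of GABA interneurons summed to 288 to 348 CPM in MA12, 287 to 355 in MA24 and 270 to 307 in non-addicted rats. The 4 markers of choroid plexus and ependyma summed to 17.2 to 47.4, 19.9 to 30.1 and 28.8 to 72.3 CPM, with the defining gene Ttr at 0 in 6 of 12 libraries. The 5 vascular markers summed to 420 to 540, 476 to 525 and 300 to 427 CPM, lowest in non-addicted rats and without overlap with MA24, and the 4 oligodendrocyte markers to 10960 to 19955, 16511 to 19295 and 10594 to 15815 CPM, again without overlap between MA24 and non-addicted rats. The septum or pallidum markers summed to 46.4 and 43.0 CPM in MA12 rats 21 and 31, and to 25.4 and 24.9 in 4N and 7N. Their highest sum was 57.2 CPM, in non-addicted rat 11, which was also the highest for Kcnj6. The part of these markers in the values of the 7 genes and of Kcnj6 was not tested.

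The genes whose levels ran most like each of the 7 over the 12 libraries were sought among 10764 genes with a mean count of at least 50. For Gad1 they were Carf (r = 0.951), Nipa2 (0.891) and Dync1li1 (0.864), for Gad2 Rasgrf2 (0.957), Ubap1 (0.955) and Tm9sf4 (0.954), and for Slc32a1 Orai2 (0.844), Bmyc (0.811) and Vps11 (0.803). Slc6a11 ran closest to Adcy1 (0.945), Rab8b (0.941) and Abl1 (0.938), and Abat to Pde10a (0.977), Letm1 (0.971) and Ogdh (0.97). For the receptor, Gabbr1 ran closest to Pde1b (0.888), Tmem151b (0.882) and Map1s (0.881), and Gabbr2 to Fndc3a (0.905), Ikzf5 (0.901) and Sec24b (0.896). These Pearson correlations describe log2 CPM in libraries that differ in depth and group, and the highest of many genes is always high. No member of the pair was among the closest genes of its partner, for either pair: Gad1 and Gad2 had an r of 0.714, and Gabbr1 and Gabbr2 had an r of -0.26.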

How the data were processed

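Striatal poly-A RNA of 12 rats was sequenced as paired-end reads, and raw counts per gene (17337 genes) were deposited, without normalization. The submitters' processing notes name cutadapt 1.18, STAR 2.7.0e, featureCounts, HTSeq 0.12.4 and rn6. The treatment of strand and of multiply mapped reads in counting is not given in the sources used here. Groups came from the labels. The 7 genes and all lists were chosen with earlier results of these data known. In each pairwise comparison, genes averaging more than 4 counts were kept, the least variable 15% by log2 CPM were dropped, and the whole table was fitted with edgeR 4.0.16 (TMM, glmQLFit and glmQLFTest, 2 groups in the fit) in R 4.3.3. The filters are one reading of the study's methods. Genes below the variance filter were taken from the fit without it. Library totals lay between 17908962 and 23850284, and counting error is small beside the spread between rats for the 7 genes. CPM were TMM-scaled over 12 libraries, and correlations used log2 CPM with a prior count of 2. Ratios were compared by exact permutation over 70 splits, also in R 4.3.3. Promoter windows were searched and figures drawn in Python 3.11.15 (matplotlib 3.10.9). Named genes were the 7, pathway genes with an adjusted p below 0.05 and 1 to 3 others from each list, and the 3 genes most correlated with each of the 7. Some listed genes are not reported here by name. Nos1 was named after its values were seen. Scripts were tested on simulated data. The fits were repeated with RLE factors, edgeR's likelihood ratio test, DESeq2 1.42.0, other filters and a model of 3 groups, without single rats, within rats of one kind of number, and with that kind as a covariate.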

Additional observations from a re-analysis of the deposited data

How the results depend on the processing

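None of the 7 genes was a DEG under any alternative in which it was tested. Gad1 and Slc32a1 in non-addicted vs. MA12, and Gabbr1 in non-addicted vs. MA24, passed the filters in only 2 alternatives each. The edgeR adjusted p in MA24 vs. MA12 ranged from 0.0441 to 0.500 for Gad2, from 0.0556 to 0.307 for Abat and from 0.0556 to 0.558 for Gabbr2, and the only value below 0.05 for any of the 7 was Gad2 without rat 9N. The count of DEGs over all genes moved more. In MA24 vs. MA12 it was 264, and 116 among N-numbered rats, 47 with the kind of number as a covariate and 129 to 436 with each rat left out in turn. In non-addicted vs. MA12 it was 27, and 87 with the likelihood ratio test, 75 with DESeq2, 12 without filters, 5 without removal of low-variance genes, 63 among rats without N, 10 with the covariate and 8 to 93 with a rat left out. In non-addicted vs. MA24 it was 49, and 163 with the likelihood ratio test, 126 with DESeq2, 10 without filters and 0 to 187 with a rat left out. That edgeR count was 0 without rat 12 (1211 genes at an unadjusted p below 0.05), 0 when low-variance genes were kept (2229) and 0 when the fit held all 3 groups (2066). The cause was not tested.

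Signs turned only for values near 0 or where the kind of number was changed. In MA24 vs. MA12, N-numbered rats and the covariate gave -0.0091 and -0.025 for Slc32a1, -0.063 and -0.079 for Gabbr1, and 0.28 and 0.27 for Dlx1. In non-addicted vs. MA12, rats without N and the covariate gave -0.032 and -0.045 for Gad2, and the covariate gave 0.022 for Gabbr1. Rats without N gave a log2 difference of 0.012 for Gad1 to Gad2 and 0.17 for Gabbr1 to Gabbr2. With a rat left out, MA24 vs. MA12 ranged from -0.040 to 0.057 for Slc32a1, -0.019 to 0.060 for Gabbr1 and -0.058 to 0.085 for Kctd8. Non-addicted vs. MA12 ranged from -0.023 to 0.064 for Gad2, -0.081 to 0.0025 for Gabbr2 and -0.082 to 0.050 for the receptor ratio. Non-addicted vs. MA24 ranged from -0.23 to 0.054 for Slc6a11, -0.037 to 0.061 for Slc32a1 and -0.082 to 0.15 for Abat. No paired analysis was possible because the rat numbers name single animals and no pair of groups shares 2 or more of them.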

Other observations

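Among the 8 markers of GABA interneurons, Nos1, the neuronal nitric oxide synthase of a class of striatal interneurons, was lower in MA24 than in MA12 rats, and it was named after its values were seen. Of the 7 markers tested between these groups, 5 were lower in MA24 rats and 2 higher, and Nos1 alone was a DEG. Sst was higher with a log2FC of 0.20 (adjusted p = 0.276, edgeR). Vip, with counts of 0 to 11, was higher with 1.93 (adjusted p = 0.154, edgeR). Nos1 was at 27.7, 33.5, 41.4 and 25.9 CPM in MA12 rats, at 28.9, 10.4, 16.8 and 19.6 in MA24 rats, and at 10.7, 26.2, 26.8 and 27.1 in non-addicted rats. Between these MA groups edgeR gave a log2FC of -0.76 (SE 0.21) and an adjusted p of 0.0434, with overlapping groups, and the adjusted p ranged from 0.00320 to 0.132 over the alternatives, 0.116 with DESeq2. It was not past the threshold without MA12 rat 21 (0.0523), 31 (0.0706) or 4N (0.0937), or without MA24 rat 14N (0.0827), 15N (0.0984) or 16N (0.0862), all edgeR adjusted p-values. Rats 14N and 9 were the lowest of their groups for Nos1, Slc1a2, Slc6a11 and Abat.

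The first principal component of log2 CPM over the 10765 genes with a mean count of at least 50 held 26.8% of the variance. Scores were 19.1, 16.6, 8.07 and 2.93 in MA12 rats, -5.32, -27.5, -10.2 and -17.4 in MA24 rats, and -6.66, 10.3, 9.24 and 0.755 in non-addicted rats. Over the 12 libraries, Pearson's r of a gene with this score was 0.871 for Gad2, 0.797 for Gabbr2, 0.662 for Abat, 0.635 for Slc6a11 and 0.523 for Gad1, but 0.00608 for Slc32a1 and -0.0844 for Gabbr1. The component parts all MA12 from all MA24 rats, so these values describe the same libraries as the comparisons and are no further evidence, and its part in the values of the 7 genes was not tested. Across the 10031 of these genes (93.2%) with a genomic span in RefSeq's GRCr8 annotation, the correlation of a gene with the score rose with its span (Spearman's rho 0.464, a description across genes, which are not independent replicates). The counts were made on rn6, and the part of gene length or RNA quality in the score was not tested.

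None of the 27 sets of 4 values (7 genes and 2 ratios in 3 groups) had a rat whose gap exceeded the 95% critical value of Dixon's test for 4 samples.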
